A study of Mus musculus with 6 samples.

Results

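The genes described here are the collagens and the enzymes that modify them, 55 of the 44788 genes in the deposited count table. They were chosen by name: 44 genes whose symbol has the form of a collagen chain, and 11 enzyme genes, namely the lysyl oxidase Lox and its relatives Loxl1 to Loxl4, the lysyl hydroxylases Plod1 to Plod3, and the prolyl 4-hydroxylase alpha subunits P4ha1 to P4ha3. Enough reads were present to test 47 of them, 36 collagens and all 11 enzymes, between mice treated with a GnRH agonist and mice that were not.

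Endometrium came from ICR mice, an outbred strain, in which adenomyosis (endometrial tissue growing into the muscle of the uterus) had been induced by oral tamoxifen from day 2 to day 5 of life (2.7 µmol/kg). All 6 libraries carry this tamoxifen exposure. The agonist group had daily intraperitoneal Decapeptyl (triptorelin; 1.5 µg for each 100 g of body weight) from day 3 to day 9 of estrus, 75 days after tamoxifen, and the group without agonist had the solvent. Mating followed 4 weeks later, and the endometrium was scraped off on day 4 of pregnancy. Each group is represented by 3 libraries. The labels do not say whether a library holds 1 mouse or a pool of the 8 in its group, so the spread behind each p-value is that among the libraries, which may be partly technical. Library totals ranged from 11720958 to 14104266 counts in the agonist group and from 12053447 to 13137470 counts without agonist, and 3 counts corresponded to 0.203 to 0.275 CPM, a count relative to the depth of its library after TMM scaling, which evens out composition between libraries. The 18S ribosomal RNA symbol Rn18s-rs5 alone took 1.94% of agonist library 1 and 3.31% of no-agonist library 2, against 0.254 to 0.369% of the others. Stromal and epithelial markers, which define endometrium, were abundant in all 6 libraries, and so were smooth muscle markers, whose summed level was 15000, 4180 and 4767 CPM in agonist libraries 1 to 3, against 10780, 10020 and 25330 CPM in no-agonist libraries 1 to 3. These muscle levels overlapped between the groups and were highest in no-agonist library 3.

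Collagen chains are hydroxylated on proline and lysine in the endoplasmic reticulum, wind around one another into a helix, and are secreted and trimmed before they assemble outside the cell. Fibrillar collagens (types I, III and V in most soft tissues) form the cables of the stroma, type IV forms the sheet-like network of basement membranes, and type VI forms beaded filaments between them. Lysyl oxidases then cross-link the assembled chains. In the pregnant mouse uterus the stromal collagen network is known to be remodelled around implantation.

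Several collagen genes lie next to each other, and their promoters are shown first because the levels of such pairs are compared below. Col4a1 and Col4a2, the chains of the most widespread type IV molecule, start back to back on chromosome 8 with first exons that overlap by 22 bases (GRCm38, GENCODE M21). The RefSeq promoter windows (GRCm38.p6, 250 bases before to 50 after the start) of Col4a2 at chr8:11312555-11312854 on the plus strand and of Col4a1 at chr8:11312777-11313076 on the minus strand therefore share 78 bases, given in capitals.
Col4a2: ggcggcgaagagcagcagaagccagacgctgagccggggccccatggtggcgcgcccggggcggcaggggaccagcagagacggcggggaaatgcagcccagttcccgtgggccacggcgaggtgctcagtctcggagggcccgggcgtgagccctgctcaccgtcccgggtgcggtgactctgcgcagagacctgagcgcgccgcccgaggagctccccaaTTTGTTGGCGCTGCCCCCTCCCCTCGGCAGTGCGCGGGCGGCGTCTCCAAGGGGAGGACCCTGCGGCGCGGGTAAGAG
Col4a1: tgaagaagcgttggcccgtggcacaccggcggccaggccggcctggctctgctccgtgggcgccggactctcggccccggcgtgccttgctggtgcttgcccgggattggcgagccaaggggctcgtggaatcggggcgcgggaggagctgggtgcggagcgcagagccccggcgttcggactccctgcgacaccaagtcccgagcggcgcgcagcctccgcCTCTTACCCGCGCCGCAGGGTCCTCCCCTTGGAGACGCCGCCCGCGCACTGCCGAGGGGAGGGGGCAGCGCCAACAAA
Type I collagen is likewise made of chains from a pair of genes, but these lie apart, Col1a1 on chromosome 11 and Col1a2 on chromosome 6. The Col1a2 window at chr6:4505368-4505667 on the plus strand is shown with its CCAAT letters, 1 match on each strand, in capitals.
Col1a2: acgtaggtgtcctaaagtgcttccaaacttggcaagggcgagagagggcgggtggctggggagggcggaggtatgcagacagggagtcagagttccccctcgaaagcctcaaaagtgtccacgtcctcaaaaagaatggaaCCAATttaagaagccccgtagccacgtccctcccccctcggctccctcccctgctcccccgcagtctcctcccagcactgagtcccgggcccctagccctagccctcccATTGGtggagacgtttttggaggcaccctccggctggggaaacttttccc
Windows were found for 41 of the 55 genes, 44 windows in all. The letters CCAAT (or ATTGG on the other strand) occurred in 14 of the 44 (31.8%), against 37.4% of 32851 windows genome-wide, TATAAA (or TTTATA) in 7 (15.9%) against 13.6%, and GGGCGG (or CCGCCC) in 28 (63.6%) against 35.7%. GGGCGG stood in 6 of 8 fibrillar and 4 of 5 type IV windows. These are matches of letters and say nothing of binding.

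Most of these genes lay lower in the agonist group, the majority by amounts that were small beside the spread between libraries, and none passed the threshold. Of the 47 tested, 33 had a fitted log2 fold change below 0 and 14 above it, where 47.8% of all 16581 genes tested lay below 0. Their median was -0.25 on the log2 scale, against 0.02 over all genes tested. In edgeR's quasi-likelihood test with Benjamini-Hochberg adjustment over all genes, 0 members and 0.0% of all genes were called at an adjusted p under 0.05, and the smallest adjusted p among members was 0.337. At an unadjusted p under 0.05, 3 members lay lower (Loxl4, Lox and Col6a3), a background of 5.09% of all genes, and 1 lay higher (Col23a1), a background of 4.17%, so both shares were close to or below those of all genes. In either direction that was 4 of 47, where 9.26% of all genes passed. The same 3 lower genes were the only tested members whose libraries did not overlap between the groups. That is 3 of 47 where 7.66% of all genes had every agonist library below every library without agonist, and 0 of 47 lay entirely above, where 6.92% of all genes did. DESeq2 called 390 genes (2.35%) at an adjusted p under 0.05, of which Loxl4 was the 1 member, at an adjusted p of 0.0369, while limma-voom and edgeR's likelihood ratio test called 0 members. When libraries were scaled by their totals alone, the median of all genes moved to 0.18 and 30 of the 47 lay below 0. Leaving out 1 library at a time left 27 to 37 members below 0 among those tested in each fit. The value of 27 came without no-agonist library 1. In these scraped samples fewer cells of a type and less RNA per cell cannot be told apart.

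**Figure D1:**
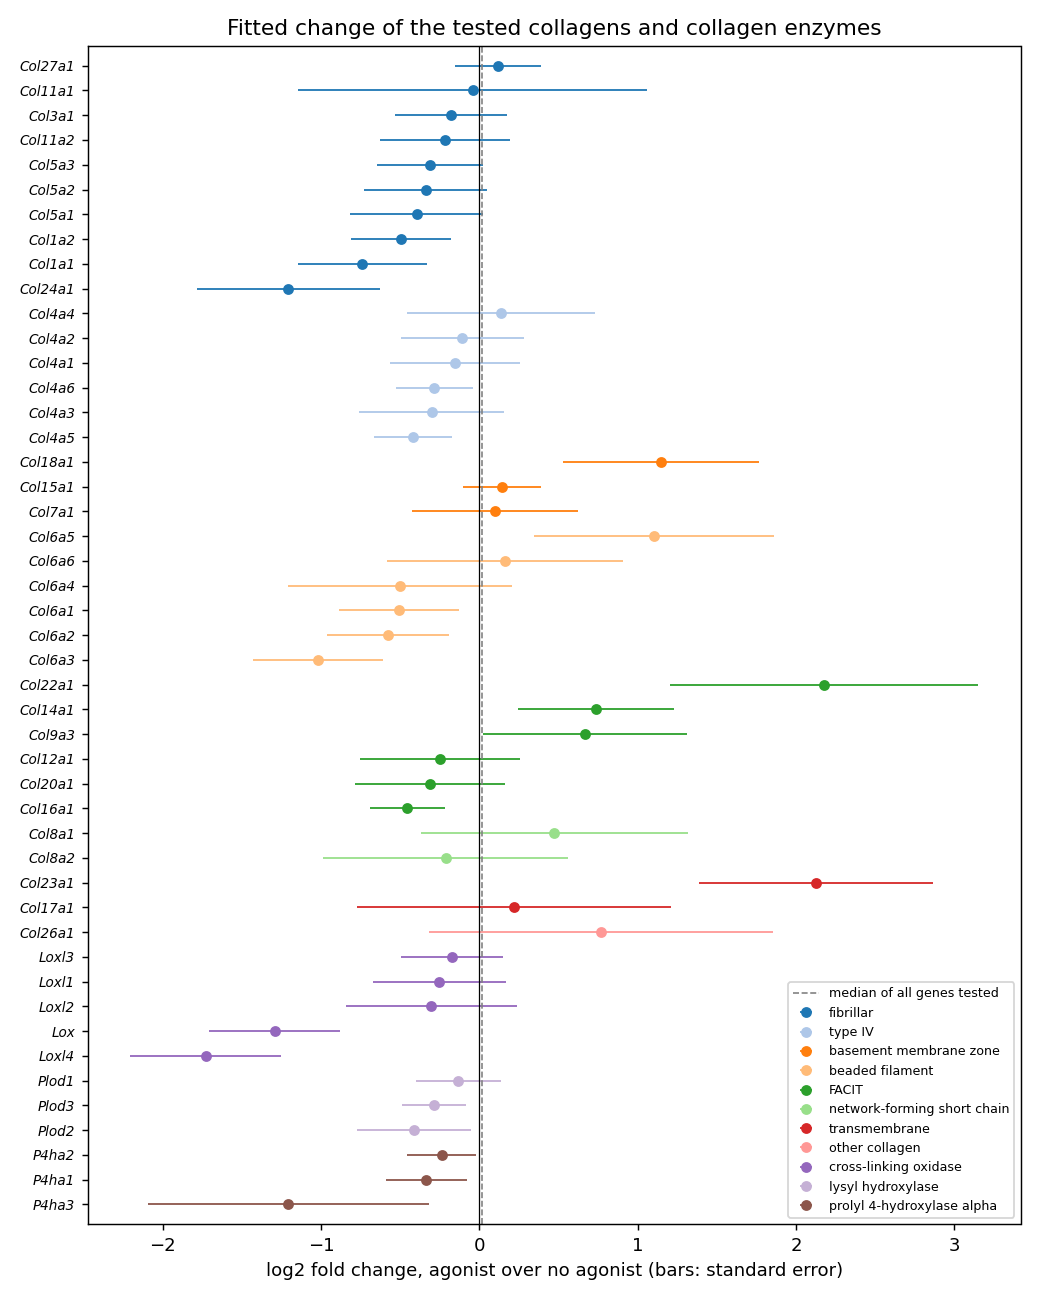
Fitted log2 fold change of each tested collagen and enzyme, agonist over no agonist, with its standard error as a bar, grouped by class. The solid line marks 0 and the dashed line the median of all genes tested (0.02); all 11 enzymes and 9 of 10 fibrillar collagens lie left of 0, and the 3 basement membrane zone collagens lie right of it.

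The libraries within a group differed widely. Of the 47 tested genes, agonist library 3 held the lowest level for 22, and no-agonist library 1 held the highest for 17 and the lowest for 0. No-agonist library 3 held the highest for 12, agonist library 2 for 10, agonist library 1 for 4, and agonist library 3 and no-agonist library 2 for 2 each.

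Per kilobase of merged exon, which allows genes to be compared, the most abundant was Col6a1 at a mean of 292 CPM per kb over the 6 libraries, followed by Col3a1 at 167, Col1a1 at 136, Col6a2 at 113, Col6a4 at 79.4 and Col1a2 at 79.3. With the longest annotated transcript as the length, the order was Col6a1 at 312, Col3a1 at 294, Col6a2 at 191, Col1a2 at 184, Col1a1 at 150 and Col6a4 at 91.8 CPM per kb. The leading pair held its place under both lengths, while Col1a2 lay above Col1a1 under the second. Summed over all 44 collagens the level was 854, 1271 and 748 CPM per kb in agonist libraries 1 to 3, against 1789, 1032 and 993 CPM per kb in no-agonist libraries 1 to 3. The agonist library 2 sum lay between those of the group without agonist.

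**Figure D2:**
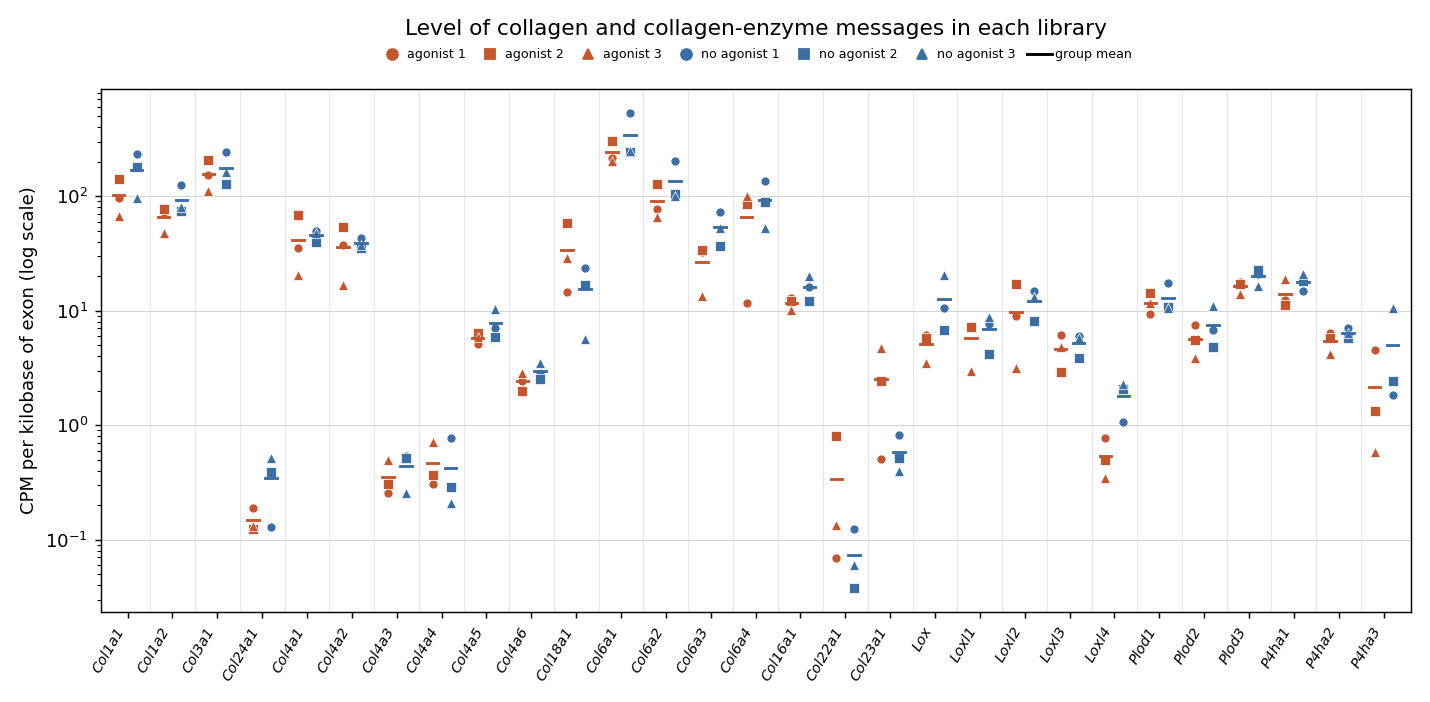
Level of the named collagens and enzymes in each library, as CPM per kilobase of merged exon on a log scale, with agonist libraries left of those without agonist and a bar at each group mean. The levels run from under 0.1 CPM per kb for Col22a1 to over 100 for Col6a1, Col3a1 and Col1a1, and most of the genes shown overlap between the groups.

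As a share of the summed collagen level, fibrillar collagens made up 41.9, 37.0 and 32.9% in the agonist libraries, against 36.4, 40.5 and 38.5% without agonist, a mean of 37.3 ± 4.50% with agonist and 38.4 ± 2.05% without (SD, n = 3 each, as for all group means here). Type IV chains made up 8.66 ± 2.12% with agonist and 8.02 ± 2.16% without, and the beaded filament collagens of type VI 44.9 ± 5.92% with agonist and 48.3 ± 3.93% without. These shares overlapped between the groups. The basement membrane zone collagens (Col7a1, Col15a1 and Col18a1, which lie beside or anchor the type IV sheet) did not overlap in their share: they made up 3.78, 6.36 and 5.81% in the agonist libraries, against 2.39, 3.09 and 2.14% in those without agonist. With 3 against 3 libraries no single value can go below a two-sided exact permutation p of 0.1. With longest-transcript lengths their shares were 3.35, 5.81 and 5.32% with agonist, against 2.17, 2.83 and 1.90% without. Their summed level did overlap, at 32.3, 80.8 and 43.5 CPM per kb in the agonist libraries, against 42.7, 31.9 and 21.3 CPM per kb in those without agonist, and the share also depends on the sum over all collagens. Their largest component by mean level in either group was Col18a1.

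**Figure D3:**
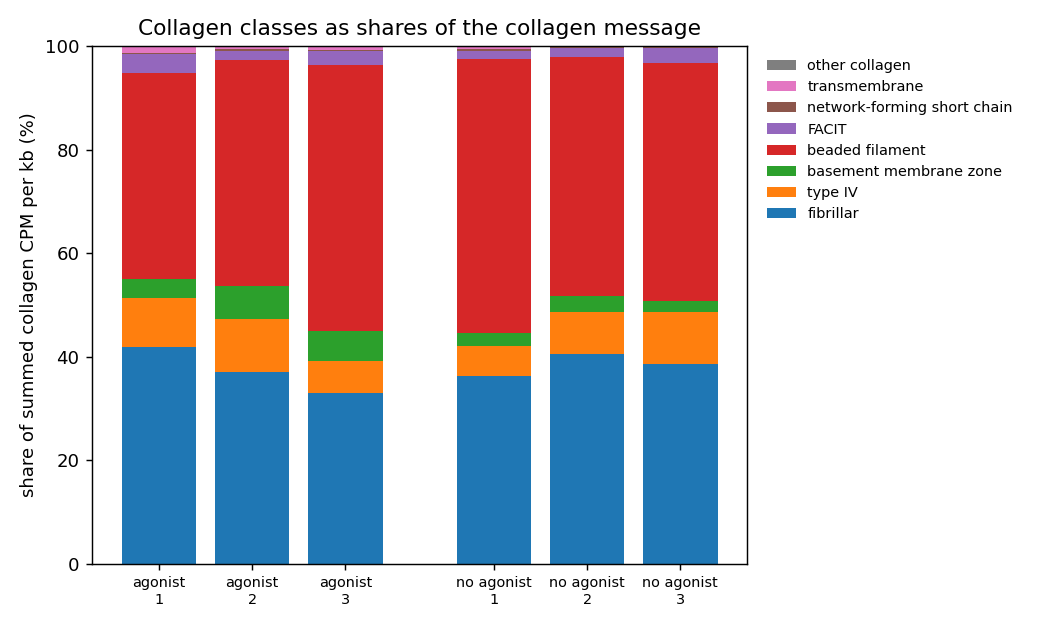
Share of each collagen class in the summed collagen level (CPM per kilobase of merged exon, in percent) of each library, agonist libraries on the left. Fibrillar and beaded filament collagens take most of every bar, and the basement membrane zone band is thicker in the agonist libraries (3.78 to 6.36%) than without agonist (2.14 to 3.09%). It is the only class shown whose shares do not overlap between the groups.

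Among the fibrillar collagens, 9 of the 10 tested lay below 0 and 1 above, with a median log2 fold change of -0.33, and 0 passed an unadjusted p of 0.05. The 6 chains of types I, III and V all lay below 0, with a median of -0.37. Col1a1, the major chain of type I collagen, had 635, 930 and 437 CPM in agonist libraries 1 to 3, against 1521, 1190 and 633 CPM in no-agonist libraries 1 to 3. No-agonist library 3 lay at the level of agonist library 1, so the groups overlapped, and the log2 fold change was -0.74 ± 0.41 (SE; edgeR adjusted p = 0.643). Its partner Col1a2 had 897, 963 and 592 CPM with agonist, against 1540, 919 and 1001 CPM without. Agonist library 2 lay above no-agonist library 2, and the log2 fold change was -0.50 ± 0.31 (edgeR adjusted p = 0.687). Col3a1, whose chain forms type III collagen of distensible tissues, had 1487, 2026 and 1097 CPM with agonist, against 2363, 1259 and 1595 CPM without. Its log2 fold change was -0.18 ± 0.35 (edgeR adjusted p = 0.923), with agonist library 2 above 2 of the 3 libraries without agonist. The type V chains, which co-assemble with type I and set fibril width, measured 146 ± 76.5 CPM with agonist and 192 ± 56.9 CPM without for Col5a1, 113 ± 39.8 CPM with agonist and 143 ± 57.3 CPM without for Col5a2 and 19.0 ± 7.37 CPM with agonist and 23.7 ± 4.64 CPM without for Col5a3. All 6 of these chains were lowest in agonist library 3, while 4 were highest in no-agonist library 1 and 2 in no-agonist library 3. Without agonist library 3 the median of the 10 fibrillar genes was -0.10, and without agonist library 2 it was -0.62. The fibrillar gene with the largest fitted difference was a low one: Col24a1, a minor fibrillar chain, had 1.44, 0.949 and 0.998 CPM with agonist, against 0.979, 2.95 and 3.94 CPM without. No-agonist library 1 lay within the agonist range, and the log2 fold change was -1.21 ± 0.58 (edgeR adjusted p = 0.578). Endometrial stroma and fibroblast markers, typical of cells that make fibrillar collagen, lay above 0 for 8 of 9 genes, with summed levels of 982 to 1245 CPM with agonist and 624 to 1179 CPM without. Of the 9, 1 lay higher at an unadjusted p under 0.05, where 4.17% of all genes did. The part of stromal cell number in these fibrillar values was not tested.

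The type IV chains overlapped between the groups. Of the 6, 5 lay below 0 and 1 above, with a median log2 fold change of -0.22. That median was -0.06 when libraries were scaled by their totals alone, and ranged from -0.36 without agonist library 3 to -0.11 without no-agonist library 1. Col4a1 had 261, 510 and 151 CPM with agonist, against 367, 299 and 359 CPM without. The 3 libraries without agonist lay close together, inside the wider spread of the agonist libraries, and the log2 fold change was -0.15 ± 0.41 (edgeR adjusted p = 0.952). Col4a2 showed the same picture, with 246, 355 and 110 CPM with agonist, against 284, 234 and 249 CPM without, and a log2 fold change of -0.11 ± 0.39 (edgeR adjusted p = 0.967). That value was 0.04 when libraries were scaled by their totals alone. The agonist libraries differed among themselves 3.37-fold for Col4a1 and 3.22-fold for Col4a2, against 1.23-fold and 1.21-fold among the libraries without agonist.

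Col4a5 and Col4a6, which lie head to head on chromosome X with 1308 bases between their starts, encode chains of other basement membrane networks. Col4a5 had 34.3, 42.8 and 39.8 CPM with agonist, against 47.5, 39.4 and 69.6 CPM without, a log2 fold change of -0.42 ± 0.24 (edgeR adjusted p = 0.664). Col4a6 had 19.4, 15.9 and 22.6 CPM with agonist, against 22.3, 20.2 and 28.1 CPM without, a log2 fold change of -0.28 ± 0.24. For both genes no-agonist library 3 was the highest and the remaining libraries overlapped. Col4a3 and Col4a4, the chains best known from the filter of the kidney, lie head to head on chromosome 1 with 71 bases between them and were low. Col4a3 had 2.56, 3.05 and 4.99 CPM with agonist, against 5.35, 5.13 and 2.57 CPM without, and Col4a4 had 3.28, 3.86 and 7.60 CPM with agonist, against 8.13, 3.04 and 2.20 CPM without. Their log2 fold changes were -0.30 ± 0.46 for Col4a3 and 0.14 ± 0.59 for Col4a4, both smaller than their standard errors. A noncoding transcript on the opposite strand shares 5.65% of the Col4a3 exon bases, and whether the counting used strand is not given in the sources used here.

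All 3 basement membrane zone collagens lay above 0. Col18a1, which carries the endostatin fragment at its end, had 101, 412 and 203 CPM with agonist, against 166, 118 and 40.0 CPM without. Agonist library 2 was far above the rest and no-agonist library 3 far below, while agonist library 1 lay inside the range of the group without agonist. The log2 fold change was 1.15 ± 0.62 (edgeR adjusted p = 0.635). Col15a1, the nearest relative of Col18a1, measured 84.3 ± 22.1 CPM with agonist and 76.3 ± 11.3 CPM without, and Col7a1, the anchoring fibril collagen, 50.4 ± 16.4 CPM with agonist and 47.1 ± 31.6 CPM without. Their differences were smaller than the spread between libraries. Endothelial markers, from cells that lie on a type IV basement membrane, were above 0 for 10 of 10 genes. Of these, 3 lay higher at an unadjusted p under 0.05, where 4.17% of all genes did. The endothelial markers had summed levels of 474 to 687 CPM with agonist, against 368 to 440 CPM without. Their part in the basement membrane values was not tested.

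Set against each other, the fibrillar median of -0.33 and the median of the 9 type IV and basement membrane zone genes of -0.11 were both below 0, and 0 genes of either set passed an unadjusted p of 0.05. The 9-gene median turned to 0.04 with library totals alone and to 0.05 without agonist library 3. The ratio of Col4a1 to Col3a1 per kb, 1 measure of basement membrane against fibrillar message, was 0.231, 0.331 and 0.181 in the agonist libraries, against 0.204, 0.313 and 0.296 in those without agonist. The groups overlapped in this ratio.

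Type VI collagen, the class with the largest mean share of the collagen message in both groups by merged exon length, lay below 0 for its 4 abundant chains and above 0 for the low chains Col6a5 and Col6a6. Col6a1 and Col6a2 are the constant chains of the molecule. Col6a1 had 949, 1330 and 890 CPM with agonist, against 2330, 1074 and 1096 CPM without, a log2 fold change of -0.51 ± 0.38 (edgeR adjusted p = 0.746). Col6a2 had 646, 1062 and 552 CPM with agonist, against 1679, 861 and 839 CPM without, a log2 fold change of -0.58 ± 0.39 (edgeR adjusted p = 0.712). In both, no-agonist library 1 stood above the other 5 libraries, which overlapped. Without that library the log2 fold change was -0.039 for Col6a1 and -0.17 for Col6a2. Col6a3, the long variable chain, had 389, 409 and 161 CPM with agonist, against 867, 442 and 634 CPM without. Every agonist library lay below every library without agonist, by a margin of 409 against 442 CPM at the nearest pair. The log2 fold change was -1.02 ± 0.41, with an unadjusted p of 0.0393 and an edgeR adjusted p of 0.514. Its unadjusted p did not stay under 0.05 when agonist library 3, no-agonist library 1 or no-agonist library 3 was left out, nor when libraries were scaled by their totals alone. Col6a4, a chain that can take the place of Col6a3, had 100, 729 and 852 CPM with agonist, against 1167, 764 and 446 CPM without. Agonist library 1 was the lowest by far and the groups overlapped (log2 fold change -0.50 ± 0.71, edgeR adjusted p = 0.886). Col6a5 measured 4.43 ± 1.54 CPM with agonist and 2.05 ± 1.68 CPM without and Col6a6 11.8 ± 5.34 CPM with agonist and 10.5 ± 10.6 CPM without. No-agonist library 1 was the highest of the 6 libraries for 5 of the 6 type VI genes.

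Among less abundant collagens, Col23a1 and Col22a1 lay higher in some of the agonist libraries, while the fitted change of Col16a1 was below 0. Col23a1, a transmembrane collagen, had 2.88, 13.9 and 27.0 CPM with agonist, against 4.75, 2.95 and 2.29 CPM without. Agonist libraries 2 and 3 were high and agonist library 1 lay among those without agonist, so the groups overlapped. The log2 fold change was 2.13 ± 0.74, with an unadjusted p of 0.0217 and an edgeR adjusted p of 0.441. That unadjusted p was not under 0.05 when agonist library 3, no-agonist library 2 or no-agonist library 3 was left out, nor in limma-voom. Col22a1, which coats fibrils at tissue junctions such as that of muscle and tendon, had 0.640, 7.45 and 1.23 CPM with agonist, against 1.13, 0.347 and 0.550 CPM without. Agonist library 2 was high, the other libraries were low and overlapped, and the log2 fold change was 2.18 ± 0.97 (edgeR adjusted p = 0.551). Col16a1, another collagen that binds fibril surfaces, had 87.6, 82.6 and 68.0 CPM with agonist, against 108, 81.7 and 137 CPM without. Agonist libraries 1 and 2 lay above no-agonist library 2, and the log2 fold change was -0.46 ± 0.24 (edgeR adjusted p = 0.618). Col14a1 and Col17a1, the collagen of hemidesmosomes, measured 53.5 ± 34.3 CPM with agonist and 32.1 ± 13.5 CPM without and 29.7 ± 29.2 CPM with agonist and 25.4 ± 24.5 CPM without, and both overlapped between the groups.

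The 8 collagens not tested were Col2a1, Col9a1, Col9a2, Col10a1, Col13a1, Col19a1, Col25a1 and Col28a1, and of these Col2a1, Col9a1, Col9a2 and Col10a1 are known from cartilage. Among them Col10a1 had 2, 1 and 0 counts in agonist libraries 1 to 3, against 7, 2 and 12 counts in no-agonist libraries 1 to 3. It lay lower with agonist, and its CPM did not overlap between the groups. Col9a2 went the other way: it had 8, 70 and 52 counts in agonist libraries 1 to 3, against 4, 0 and 0 counts in no-agonist libraries 1 to 3. In CPM this was 0.640, 4.74 and 3.99 with agonist, against 0.301, 0 and 0 without, and the groups did not overlap. How many untested genes of the whole table lay without overlap was not counted. A fit without the filter on low counts gave Col10a1 an unadjusted p of 0.0241 and an edgeR adjusted p of 0.515. The same fit gave Col9a2 an unadjusted p of 7.78e-04 and an edgeR adjusted p of 0.119 over all 28089 genes with a count. Just outside the filter with it were Col25a1 at 0.535 ± 0.368 CPM with agonist and 0.335 ± 0.172 CPM without, Col28a1 at 0.392 ± 0.374 CPM with agonist and 0.368 ± 0.422 CPM without and Col13a1 at 0.394 ± 0.0839 CPM with agonist and 0.292 ± 0.268 CPM without. Just inside were Col9a3 at 1.72 ± 0.874 CPM with agonist and 1.08 ± 0.687 CPM without with Col22a1, Col24a1 and Col6a5, given above. The cartilage and bone markers held 3 tested genes of 6, with summed levels of 30.5 to 115 CPM with agonist and 76.3 to 108 CPM without. Most of that sum was Sox9, a gene also expressed outside cartilage, and the bone gene Ibsp had 0 counts in all 6 libraries, where a count of 0 allows up to 3 counts per library.

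All 11 enzymes had a log2 fold change below 0, with a median of -0.30, with TMM scaling, while 10 of 11 did when libraries were scaled by their totals alone, where Plod1 stood at 0.02. Leaving out 1 library at a time left 9 to 11 of them below 0. Among these 11, 2 lay lower at an unadjusted p under 0.05, where 5.09% of all genes did, and 0 passed the adjusted threshold. Agonist library 3 was the lowest for 8 of the 11, and no-agonist library 3 the highest for 6, the library with the highest smooth muscle markers. Smooth muscle markers lay below 0 for 12 of 12 genes with 0 at an unadjusted p under 0.05, and their part in the enzyme values was not tested.

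Lox, which oxidizes lysines in collagen and elastin so that the fibres cross-link, had 29.1, 27.6 and 16.6 CPM with agonist, against 50.5, 32.7 and 96.9 CPM without. All agonist libraries lay below all others, and no-agonist library 3 was the highest by far. The log2 fold change was -1.29 ± 0.41, with an unadjusted p of 0.0151 and an edgeR adjusted p of 0.404. That unadjusted p did not stay under 0.05 when agonist library 3 or no-agonist library 3 was left out. Loxl4, another member of the oxidase family, had 3.28, 2.10 and 1.46 CPM with agonist, against 4.44, 8.69 and 9.62 CPM without. The groups did not overlap, and the log2 fold change was -1.73 ± 0.48, with an unadjusted p of 0.00722 and an edgeR adjusted p of 0.337. Loxl4 was the 1 member with an unadjusted p under 0.05 in each of the 6 fits that left out a library, and its adjusted p ranged from 0.0369 in DESeq2 to 0.740 over the alternatives. Loxl2, which acts on type IV collagen, had 48.3, 92.7 and 17.0 CPM with agonist, against 79.8, 43.9 and 71.6 CPM without. Agonist library 2 was the highest and agonist library 3 the lowest of all 6, with a log2 fold change of -0.30 ± 0.54 (edgeR adjusted p = 0.911). Loxl1, the form tied to elastic fibres, had 23.9, 23.5 and 9.75 CPM with agonist, against 25.2, 13.7 and 29.2 CPM without, and Loxl3 had 28.1, 13.4 and 22.3 CPM with agonist, against 27.6, 17.9 and 26.3 CPM without. Their log2 fold changes were -0.25 ± 0.42 for Loxl1 and -0.17 ± 0.32 for Loxl3, both smaller than their standard errors. Htra2, on the opposite strand, shares 11.6% of the Loxl3 exon bases, so reads of Htra2 may count toward Loxl3 if strand was not used.

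The lysyl hydroxylases prepare lysines for cross-links and for sugar attachment. Plod2, the form that hydroxylates the chain ends, had 40.7, 29.8 and 20.9 CPM with agonist, against 36.7, 25.8 and 59.3 CPM without, a log2 fold change of -0.41 ± 0.36 (edgeR adjusted p = 0.787). Plod1 had 63.7, 96.4 and 78.3 CPM with agonist, against 119, 72.4 and 70.8 CPM without, a log2 fold change of -0.13 ± 0.27. Plod3, which also adds sugars, had 81.1, 77.5 and 63.5 CPM with agonist, against 95.1, 102 and 73.5 CPM without, a log2 fold change of -0.29 ± 0.20 (edgeR adjusted p = 0.735). The groups overlapped for all 3. Plod3 shares 11.7% of its exon bases with Znhit1 and Plod2 6.42% with an unclassified transcript, each on the opposite strand.

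The prolyl 4-hydroxylases make the hydroxyproline that keeps the collagen helix stable at body temperature. P4ha1, the most widespread alpha subunit, had 50.6, 45.7 and 77.8 CPM with agonist, against 60.6, 74.0 and 85.3 CPM without, a log2 fold change of -0.34 ± 0.25 (edgeR adjusted p = 0.749). P4ha2 had 39.7, 35.8 and 26.1 CPM with agonist, against 44.4, 35.9 and 39.6 CPM without, a log2 fold change of -0.24 ± 0.22 (edgeR adjusted p = 0.798). P4ha3, the least abundant of the 3 per kb, had 14.2, 4.13 and 1.84 CPM with agonist, against 5.80, 7.64 and 33.3 CPM without, a log2 fold change of -1.21 ± 0.89 (edgeR adjusted p = 0.740). No-agonist library 3 was the highest for P4ha3 by far, and without that library the log2 fold change was 0.0061.

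Ratios within a library do not depend on how the library was scaled, and for some chains they varied less than the levels. Col4a1 over Col4a2, the head-to-head pair whose shared promoter letters are given above, was 0.944, 1.27 and 1.22 in agonist libraries 1 to 3, against 1.15, 1.13 and 1.28 in no-agonist libraries 1 to 3. The highest of these was 1.35 times the lowest, although the level of Col4a1 itself differed 3.37-fold among the agonist libraries. Col6a1 over Col6a2, neighbours on chromosome 10 that point the same way 85161 bases apart, was 2.79, 2.38 and 3.06 with agonist, against 2.64, 2.37 and 2.48 without, a range of 1.29 times. Col4a5 over Col4a6 spanned 1.52 times. Col1a1 over Col1a2, from different chromosomes, was 1.34, 1.83 and 1.40 with agonist, against 1.87, 2.45 and 1.20 without, a range of 2.05 times. With longest-transcript lengths it was 0.638, 0.871 and 0.665 with agonist, against 0.891, 1.17 and 0.570 without, so which of these chains has more message depends on the length used. Col4a3 over Col4a4, also head to head and low in counts, spanned 2.57 times. Other pairs from different chromosomes spanned from 1.675 times for Col5a1 over Col1a1 to 20.5 times for Col6a4 over Col6a3. Whether gene position or low counts bear on these ranges was not tested.

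Other ratios spread widely. Col6a4 over Col6a3 was 0.361, 2.50 and 7.41 with agonist, against 1.89, 2.42 and 0.989 without, a range of 20.5 times, with both extremes in the agonist group. Col6a3 over Col6a1 was 0.150, 0.113 and 0.0664 with agonist, against 0.136, 0.151 and 0.212 without, and Col18a1 over Col15a1 0.981, 3.71 and 3.11 with agonist, against 2.06, 1.59 and 0.406 without. Both overlapped between the groups. Col3a1 over Col1a1 was 1.57, 1.46 and 1.68 with agonist, against 1.04, 0.708 and 1.69 without, so the agonist libraries lay close together near the top of the range without agonist. Of the 15 ratios computed, Lox over Col3a1 was the 1 without overlap, at 0.0402, 0.0280 and 0.0312 with agonist, against 0.0440, 0.0533 and 0.125 without. Lox over Col1a1 did overlap.

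**Figure D4:**
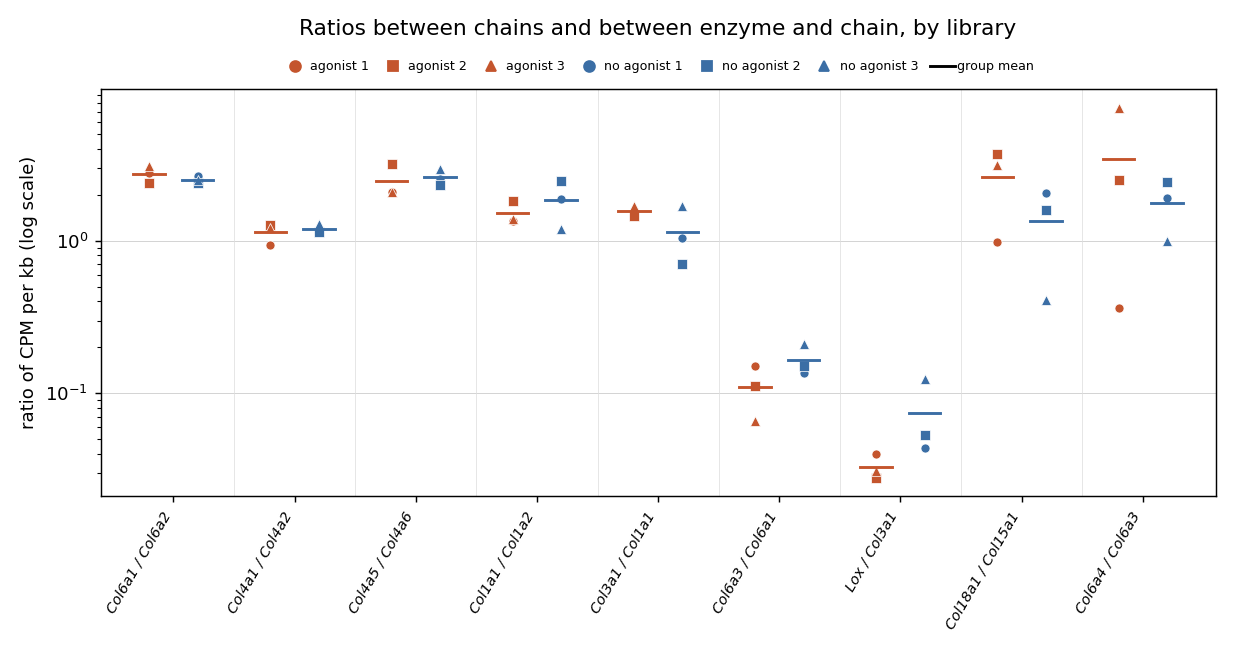
Ratio of per-kilobase levels between pairs of genes in each library, on a log scale, with agonist libraries left of those without agonist and a bar at each group mean. The pairs on the left vary little (1.29 times over all 6 libraries for Col6a1 over Col6a2), and Col6a4 over Col6a3 on the right varies most (20.5 times).

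No gene of the other collagen pathway lists passed the adjusted threshold. Of 16 deposited symbols for folding and secretion of procollagen, 13 lay below 0 and 3 above, with a median log2 fold change of -0.15 and 0 at an unadjusted p under 0.05. Ctage5 (-0.11) and Mia2 (0.27) are counted apart there, although RefSeq now names Ctage5 as Mia2. In that list the 3 with the smallest p were Mia3, which loads procollagen into transport carriers, P4hb, the partner of the prolyl hydroxylase alpha subunits, and the ion channel gene Tmem38b. Mia3 had 115, 114 and 111 CPM with agonist, against 134, 151 and 163 CPM without, a small difference without overlap (log2 fold change -0.40 ± 0.17, edgeR adjusted p = 0.549). P4hb had 680, 920 and 673 CPM with agonist, against 1070, 1246 and 906 CPM without, with agonist library 2 just above no-agonist library 3. Tmem38b had 19.5, 15.2 and 15.7 CPM with agonist, against 19.5, 22.8 and 27.6 CPM without. Of 7 tested genes for trimming the propeptides, 4 lay above and 3 below 0, among them the N-proteinase Adamts2 with 68.9, 49.3 and 16.6 CPM with agonist, against 108, 61.5 and 96.8 CPM without (log2 fold change -0.98 ± 0.48), Tll1 at 1.76 ± 0.956 CPM with agonist and 0.683 ± 0.399 CPM without and Adamts14 at 5.03 ± 2.36 CPM with agonist and 8.35 ± 2.61 CPM without.

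Of 7 tested proteoglycans that bind fibrils, 3 lay above and 4 below 0, and of 8 tested genes for collagen breakdown and uptake 3 above and 5 below, with 0 of these 15 at an unadjusted p under 0.05. The breakdown list mixes proteases with their inhibitors: Timp1 and Timp2 were among those below 0, and Timp3 among those above. The proteoglycan with the smallest p was osteoglycin, Ogn, at 123, 23.8 and 37.8 CPM with agonist, against 59.4, 49.8 and 428 CPM without, where 1 library stood high. In the breakdown list it was Ctsk, a cathepsin that cuts collagen, at 15.3, 19.0 and 37.5 CPM with agonist, against 71.6, 29.9 and 33.3 CPM without. The collagenase genes Mmp13 and Mmp8 had too few reads to be tested, at most 0.400 CPM in any library. Of 7 collagen receptors, 3 lay above and 4 below 0. Itgb1, the shared beta chain of the collagen-binding integrins, had 332, 279 and 279 CPM with agonist, against 348, 365 and 577 CPM without, with no overlap (log2 fold change -0.54 ± 0.26, edgeR adjusted p = 0.582). Itga2 measured 5.32 ± 4.07 CPM with agonist and 17.2 ± 17.1 CPM without and the receptor kinase Ddr2 113 ± 18.8 CPM with agonist and 86.6 ± 20.0 CPM without.

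Of 16 genes whose proteins join type IV collagen in the basement membrane, 10 lay above and 6 below 0, with 2 higher and 4 lower by an unadjusted p of 0.05 and a smallest edgeR adjusted p of 0.322. Over all genes 4.17% lay higher and 5.09% lower at that level. Of the 16, 3 had every agonist library below every library without agonist, where 7.66% of all genes did. Another 1 lay entirely above, where 6.92% of all genes did. Lama5 overlapped between the groups, with agonist library 1 at 456.5 CPM above no-agonist library 1 at 411.3 CPM. The lower ones were the laminin chains Lama1, Lama3, Lamb3 and Lama5, and the higher ones Lamc3 and Nid2, of which Lamb3, Lama5 and Nid2 are named after their values were seen. Lama1 had 1.92, 1.02 and 0.921 CPM with agonist, against 5.27, 3.91 and 4.03 CPM without (log2 fold change -1.77 ± 0.45, edgeR adjusted p = 0.322). Lama3, an alpha chain of the laminin that anchors epithelium, had 46.8, 13.3 and 25.2 CPM with agonist, against 81.9, 59.2 and 142 CPM without (log2 fold change -1.73 ± 0.50, edgeR adjusted p = 0.353). None of the agonist libraries reached the lowest library without agonist for either alpha chain. Lamb3, a laminin beta chain, had 54.0, 17.4 and 30.6 CPM with agonist, against 84.9, 68.9 and 85.9 CPM without (log2 fold change -1.23 ± 0.38, edgeR adjusted p = 0.395), again with no overlap. Lamc3, a laminin gamma chain, had 3.68, 14.3 and 14.1 CPM with agonist, against 3.77, 2.08 and 2.02 CPM without (log2 fold change 2.02 ± 0.58, edgeR adjusted p = 0.356). Agonist libraries 2 and 3 were high for Lamc3, while agonist library 1 lay just under no-agonist library 1. The type IV chains of the same membranes overlapped throughout, and no test compared them with the laminins. Epithelial markers lay below 0 for 10 of 10 genes, 5 of them at an unadjusted p under 0.05, where 5.09% of all genes lay lower, with summed levels of 4146 to 5671 CPM with agonist, against 6879 to 11910 CPM without. Their part in the laminin values was not tested.

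**Figure D5:**
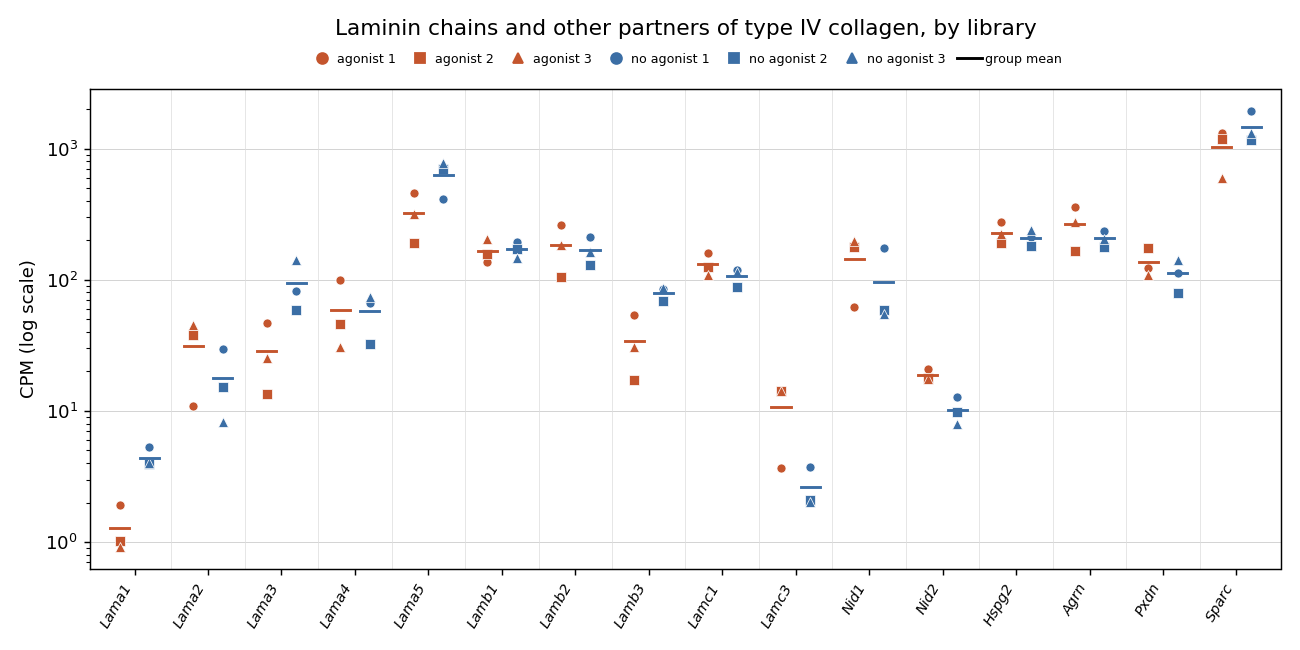
Level in CPM, on a log scale, of the laminin chains and other basement membrane partners in each library, agonist libraries left of those without agonist, with a bar at each group mean. Lama1, Lama3 and Lamb3 lie lower in every agonist library, Lamb3 at 17.4 to 54.0 CPM with agonist against 68.9 to 85.9 CPM without, while Nid2 lies higher in every one. Over all genes tested, 7.66% lie entirely lower with agonist and 6.92% entirely higher.

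Markers of the other cell types that scraped endometrium can hold were measured beside these genes. Pericyte markers lay above 0 for 2 of 5 genes, with summed levels of 108 to 172 CPM with agonist and 110 to 168 CPM without. Macrophage markers lay above 0 for 1 of 6 genes, with 255 to 679 CPM with agonist and 751 to 2131 CPM without, mostly from Cd14. Of the 6, 2 lay lower at an unadjusted p under 0.05, where 5.09% of all genes did. Lymphocyte markers lay above 0 for all 5 tested genes, with 22.0 to 34.6 CPM with agonist and 8.08 to 15.2 CPM without. Of the 5, 3 lay higher at an unadjusted p under 0.05, where 4.17% of all genes did. Mesothelial markers summed to 1.08 to 37.5 CPM with agonist and 1.22 to 20.4 CPM without, and red blood cell markers to 345 to 1878 CPM with agonist and 120 to 1046 CPM without. Of 6 embryo and trophoblast markers, 4 (Cdx2, Nanog, Pou5f1 and Gcm1) had 0 counts in all 6 libraries.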

How the data were processed

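The deposited table holds whole-number read counts per gene symbol for 6 libraries of scraped mouse endometrium. Per the labels' protocols, RNA with an integrity number above 8 entered the Ion Total RNA-Seq Kit v2, and an Ion Proton gave single-end reads. The submitters' processing notes name the genome mm10 (GRCm38) and HTSeq 0.6.1. How reads were aligned, which annotation was counted and whether strand was used is not given in the sources used here, and genes that overlap cannot be told apart with certainty. The deposited counts carry no recorded normalization by the authors, and the depth, given with the results, sets their counting precision.

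The groups were taken from the labels. Counts were filtered with edgeR's filterByExpr at its defaults, scaled by TMM factors and compared by edgeR's quasi-likelihood F-test with Benjamini-Hochberg adjustment over 16581 genes (R 4.3.3, edgeR 4.0.16, limma 3.58.1). Calls needed an adjusted p under 0.05. The common biological coefficient of variation was 0.375. Fold changes (log2) put the agonist group over the group without it. CPM use TMM-scaled library sizes, and CPM per kb divides by the merged exon length in GENCODE M21, which held all 55 genes, or by the longest transcript. The fitting code was tested on simulated data with known changes. At the spread of these data it recovered 1 of 99 2-fold changes and 35 of 94 4-fold changes at an adjusted p under 0.05. At a low dispersion of 0.02 it recovered 88 of 100 and 97 of 97. Alternatives were other scalings, filters, DESeq2 1.42.0, limma-voom, edgeR's likelihood ratio test and leaving out each library.

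The members, the pathway and marker lists and the alternatives were chosen with earlier results of these data known. Values in every library are given for the 6 members with the highest CPM per kb, the type IV chains, members with an unadjusted p under 0.05 and the 4 tested members next in p, and the 11 enzymes. Up to 3 genes of each pathway list with the smallest p are named, and other genes were added where the text says so or are given by group means. Genes near the filter on low counts are also named. Counts for the basement membrane list leave out 1 gene that is not reported here.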

Additional observations from a re-analysis of the deposited data

How the results depend on the processing

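Of the 40 named and tested members, 25 kept 1 direction over the alternatives that gave them a value, at most 14 for each. Outside the fits that left out a library, 3 turned: with library totals alone Col4a2 stood at 0.036 and Plod1 at 0.016, and with limma-voom Col17a1 stood at -0.27. The cause was not tested. Leaving out 1 library turned 15 of them, with log2 fold changes from -0.43 to 0.11 for Col3a1, -0.93 to 0.0074 for Col6a4, -0.73 to 0.18 for Col4a1, -0.52 to 0.24 for Col4a2, -0.32 to 0.90 for Col4a4, -0.51 to 0.064 for Loxl1, -0.99 to 0.12 for Loxl2, -0.42 to 0.074 for Loxl3, -0.30 to 0.15 for Plod1, -2.36 to 0.0061 for P4ha3, -0.00093 to 0.35 for Col15a1, -0.31 to 0.70 for Col7a1, -0.83 to 1.40 for Col17a1, -0.30 to 1.36 for Col6a6 and -0.11 to 0.26 for Col27a1.

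Members higher at an unadjusted p under 0.05 numbered 1 and became 2 with library totals alone, DESeq2 or edgeR's likelihood ratio test (Col22a1 added), 4 with no filter on low counts (Col9a2, Col18a1 and Col22a1 added) and 0 with limma-voom. Leaving out 1 library gave 1 to 4, with 4 without agonist library 1 and 2 without no-agonist library 1. Members lower at that level numbered 3, and 2 with library totals alone (Col6a3 lost) or the stricter filter (Loxl4 removed), 4 with no filter (Col10a1 added) and 2 to 4 when a library was left out. Members lower at an adjusted p under 0.05 numbered 0, and 1 with DESeq2. The fibrillar median ranged from -0.62 without agonist library 2 to -0.10 without agonist library 3, and was -0.18 with library totals alone. Over all genes, DESeq2 called 139 higher and 251 lower, the likelihood ratio test 104 and 164, and the fit with no filter 8 and 28, against 0 and 0. Library totals alone moved the median of all genes from 0.02 to 0.18. The stricter filter removed low members, Loxl4 among them, and gave them no value. No paired analysis was possible because the labels give no litter, day or batch that links an agonist library to one without agonist. The library numbers used here pair nothing across the groups. With 3 libraries a group, a difference that was not called here is not shown to be absent.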
